A study of Caenorhabditis elegans with 6 samples.

Results

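The *C. elegans* genes for G protein signalling and ion channels that set the rate of egg laying were examined in whole hermaphrodites that released few or many muscle exophers, large vesicles that body wall muscle cells shed. The 10 genes *goa-1*, *egl-30*, *egl-10*, *eat-16*, *egl-8*, *dgk-1*, *egl-19*, *egl-2*, *egl-36* and *unc-103* were taken by symbol from the 46756 genes of the count table, and all 10 had enough counts to be tested. Messenger RNA was sequenced from adulthood day 2 worms grown at 20 °C on *E. coli* OP50, in 3 libraries of low exopher worms (fewer than 2 exophers per worm) and 3 of high exopher worms (more than 20). Both groups were hermaphrodites of the reporter strain ACH93 in a wild-type background, which carries the transgenes wacIs1 and wacIs14. These use the *myo-3* promoter to mark the proteasome subunit RPN-5 and the mitochondrial outer membrane of muscle with fluorescent proteins, together with a copy of *unc-119*, so both groups share a muscle transgene load. The worms of each library were chosen by their exopher number, and the sources used here do not state how many worms a library held.

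Egg laying in *C. elegans* is driven by the serotonergic HSN neurons and the cholinergic VC neurons, which excite the vulval muscles. Within these cells a pair of opposed G protein pathways sets the output. The Gq protein EGL-30 activates the phospholipase C beta EGL-8, which makes diacylglycerol and promotes transmitter release, while the Go protein GOA-1 acts against it. Each G protein has its own RGS protein, which speeds the return to the inactive state. When egg laying is held back, embryos are retained in the uterus, and the study followed embryos in the uterus beside exopher number in other experiments. The question put to these libraries was whether transcripts of this machinery differed between worms with few and many exophers. The RNA came from whole worms, so the counts of each gene join all tissues that express it. The part from the egg-laying cells was not measured.

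None of the 10 genes changed past the thresholds between the groups. A gene was called at an adjusted p below 0.05 (quasi-likelihood test of edgeR) and a log2 fold change, here always high over low, above 1 or below -1. The count was 0 of 10 with edgeR, with DESeq2's Wald test and with limma-voom, while 5.74% of the 15883 genes tested were called with edgeR. With the adjusted p alone the count was 0 of 10 too in this edgeR fit, beside 6.51% of all genes tested. A block on the replicate number gave *egl-30* an adjusted p of 0.0303 from edgeR. With the block and an exon length correction *egl-19* had 0.0337 from edgeR. The share of all genes at the adjusted p alone was not computed for these 2 fits. At an unadjusted p below 0.05 from edgeR without a block there were 3 of the 10, *egl-30*, *eat-16* and *egl-19*, each with the higher mean in high exopher worms. Of all genes tested, 8.98% were higher and 8.07% lower at this p. The 95% interval of the log2 fold change lay between -1 and 1 for 9 of the 10 genes, and reached past 1 for *egl-2*. The median log2 fold change of the 10 was 0.20, that of all genes tested -0.013, and the values ran from -0.29 for *egl-10* to 0.52 for *egl-19*. In these bulk libraries fewer cells of a type and less RNA per cell cannot be told apart.

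**Figure D1:**
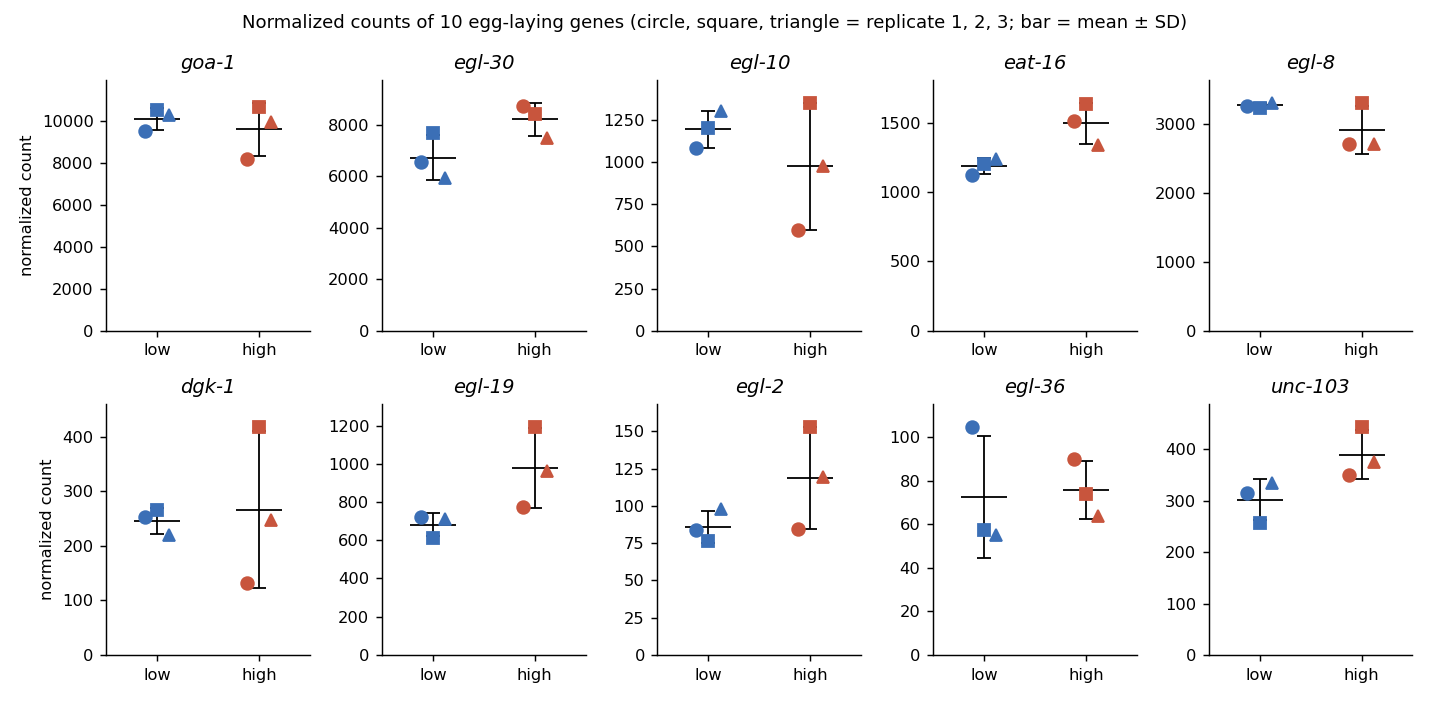
Normalized counts (counts scaled to a common library size, vertical axes from 0) of the 10 genes in the 3 low exopher libraries (blue) and the 3 high exopher libraries (red). Circles, squares and triangles are replicates 1, 2 and 3, and black bars give the mean ± SD. The groups are separate for *eat-16*, *egl-19* and *unc-103* and overlap for the other 7. High exopher replicate 1 (red circle) lies lowest of its group in 7 panels, in that of *egl-8* by 2710 against 2715.

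The libraries held between 60511481 and 72909583 counts. Libraries of the same group were farther apart than sampling noise allows: the chi-square per gene ran from 44.8 to 95.2. Of the marker lists, the summed normalized counts of 15 pan-neuronal genes, led by *snb-1* and *unc-11*, overlapped between the groups (29135 to 30625 in low, 28956 to 31184 in high). The means of *snb-1* were 13294 in low and 13095 in high, so this gene carried much of the sum. The median log2 fold change of the 15 genes was -0.022. In 1 of the 15, *unc-10*, every high library lay above every low one, beside 11.8% of all genes tested. The sums of 17 zygotic embryo genes, led by *hch-1* and *elt-7*, overlapped too (4331 to 6514 and 5564 to 8390). In this list *hch-1* had a log2 fold change of 0.97 (adjusted p = 0.0376 from edgeR), while 4 of the 15 genes tested had one above 0 and the median was -0.11. For 13 molting and cuticle genes, led by *noah-1* and *noah-2*, the sums were 16084 to 30142 in low and 29264 to 48741 in high. The sum of low replicate 2 lay above that of high replicate 1, but the sum was higher in high within every replicate number. Of the 9 cuticle genes tested, 4 rose past the thresholds and 0 fell, beside 2.95% and 2.78% of all genes tested. The sums of 13 muscle genes, led by *unc-54* and *lev-11*, were lower in high (171305 to 197874 against 133459 to 162543). The muscle genes were mixed: 4 of the 13 had a log2 fold change above 0, and the median was -0.32. At an adjusted p below 0.05 from edgeR alone, 1 muscle gene was higher and 2 were lower, beside 6.51% of all genes tested in either direction. The sums of 15 sperm genes other than *msp*, led by *spe-44* and *spe-15*, were lower as well (3439 to 5246 against 2563 to 3084). The 12 sperm genes tested had a median log2 fold change of -1.43 and a lowest of -8.03. Of these 12, 3 fell past the thresholds and 0 rose. The sums of 15 ciliated neuron genes, led by *klp-11* and *osm-1*, were higher in high (2264 to 2547 against 3484 to 3949). Of these 15, 5 rose past the thresholds and 0 fell. Among the pan-neuronal, embryo and muscle genes 0 were called. No listed marker was at 0 in every library, and those at 0 in at least 1 library included *med-1*, *gsp-3*, *bli-2* and *rol-6*. The part of these differences in the values of the 10 genes was not tested.

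The libraries also differed by exon length. Among genes with a mean above 100 normalized counts, the median log2 deviation from the mean of the group was -0.14 in high exopher replicate 1, 0.11 in replicate 2 and 0.035 in replicate 3 for the 1474 genes with over 3000 exon bases. For the 3014 genes with up to 1000 exon bases the same medians were 0.13, -0.083 and -0.058. In the low exopher libraries the medians of the long genes lay between -0.034 and 0.053. Of the 10 genes, 7 have over 3000 exon bases, and in 6 of these 7 high exopher replicate 1 was the lowest and replicate 2 the highest of the high group, with *egl-30* as the exception. For *egl-8* this order rests on a near tie, 2710 against 2715 normalized counts in high replicates 1 and 3. The same order held in 1 of the 3 shorter genes, *goa-1*. Of all genes tested, it held in 41.8% of those with over 3000 exon bases and in 13.1% of the others. The SD of the normalized counts was larger in the high than in the low group for 8 of the 10 genes, beside 61.9% of all genes tested.

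*goa-1* (WBGene00001648), which encodes the Go alpha subunit that holds egg laying back and also takes part in spindle positioning in the early embryo, had the highest level of the 10. It lies on chromosome I from 7522116 to 7526716 in WBcel235 and shares no exon base with another gene. Its normalized counts were 9505, 10496 and 10252 in low exopher replicates 1, 2 and 3, against 8186, 10658 and 9921 in the high ones. The high group held both the lowest and the highest library, so the groups overlapped. The means were 10084 ± 516 (SD, n = 3) and 9589 ± 1269 (SD, n = 3), and the log2 fold change was -0.073 (95% interval -0.31 to 0.16, adjusted p = 0.829 from edgeR). The interval corresponds to a fold between 0.807 and 1.12, the narrowest range but for that of *egl-8*.

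*egl-30* (WBGene00001196), the Gq alpha gene that promotes egg laying, had a higher mean in high exopher worms but did not pass the test. The gene lies on chromosome I from 1835661 to 1841965, and 190 of its 3928 exon bases (4.84%) lie in annotated genes of the same strand. Its normalized counts were 6569, 7702 and 5945 in the low libraries, against 8754, 8427 and 7489 in the high ones. Low replicate 2 lay above high replicate 3, and this was the sole overlap. Within each replicate number the high library lay above the low one, by 0.41, 0.13 and 0.33 on the log2 scale. The means were 6739 ± 890 (SD, n = 3) and 8223 ± 657 (SD, n = 3), and the log2 fold change was 0.29 (95% interval 0.041 to 0.53, adjusted p = 0.204 from edgeR). A block on the replicate number gave an adjusted p of 0.0303 from edgeR at the same log2 fold change of 0.29, still inside the fold threshold. The alternatives together gave adjusted p values between 0.0303 and 0.516.

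Each G protein is turned off by an RGS protein, EGL-10 for GOA-1 and EAT-16 for EGL-30. *egl-10* (WBGene00001179), whose product promotes egg laying, lies on chromosome V from 12453290 to 12463008 and shares 54 exon bases with F28C1.1 on the other strand. It had 1086, 1203 and 1303 normalized counts in the low libraries, against 600, 1356 and 976 in the high ones. High replicate 1 was the lowest and high replicate 2 the highest of the 6 libraries. The means were 1197 ± 109 (SD, n = 3) and 977 ± 378 (SD, n = 3), and the log2 fold change was -0.29 (95% interval -0.92 to 0.33, adjusted p = 0.715 from edgeR). Without high replicate 1 the log2 fold change was -0.044, and without high replicate 2 it was -0.61.

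*eat-16* (WBGene00001145), whose product holds egg laying back, had 1125, 1202 and 1238 normalized counts in the low libraries, against 1512, 1637 and 1337 in the high ones. Every high library lay above every low one. The gene lies on chromosome I from 9722716 to 9726284 and shares no exon base with another gene. Its means were 1188 ± 57.7 (SD, n = 3) and 1495 ± 151 (SD, n = 3), and the log2 fold change was 0.33 (95% interval 0.051 to 0.61, adjusted p = 0.196 from edgeR). The fold was 1.26, and the alternatives gave adjusted p values between 0.057 and 0.572.

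EGL-8 and DGK-1 act on the same lipid, since the phospholipase EGL-8 makes diacylglycerol and the kinase DGK-1 removes it. *egl-8* (WBGene00001177), on chromosome V from 20818 to 43704, had 3262, 3240 and 3310 normalized counts in the low libraries, against 2710, 3313 and 2715 in the high ones. The low libraries were nearly equal, and 2 of the 3 high libraries lay below them. The means were 3271 ± 35.9 (SD, n = 3) and 2913 ± 347 (SD, n = 3), and the log2 fold change was -0.17 (95% interval -0.39 to 0.055, adjusted p = 0.475 from edgeR). Its fold interval was 0.763 to 1.04.

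*dgk-1* (WBGene00000958), the diacylglycerol kinase theta gene on chromosome X from 983903 to 991456, had the largest spread relative to its mean within the high group. It had 253, 265 and 220 normalized counts in the low libraries and 132, 418 and 248 in the high libraries. High replicates 1 and 2 were the lowest and the highest of the 6. The means were 246 ± 23.5 (SD, n = 3) and 266 ± 144 (SD, n = 3), and the log2 fold change was 0.11 (95% interval -0.77 to 0.996, adjusted p = 0.94 from edgeR). The direction turned with the library left out, from -0.38 without high replicate 2 to 0.43 without high replicate 1.

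**Figure D2:**
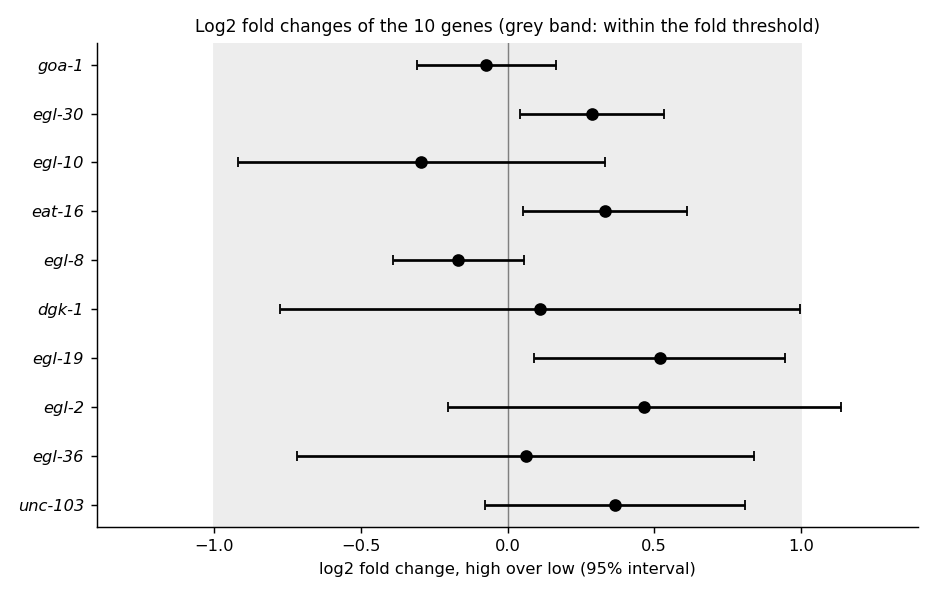
Log2 fold change (high over low, horizontal axis) of each of the 10 genes from edgeR's quasi-likelihood fit on 3 low and 3 high exopher libraries, with its 95% interval. The grey band runs from -1 to 1. The intervals of *egl-30*, *eat-16* and *egl-19* lie above 0, and that of *egl-2*, which ends at 1.13, is the one that leaves the band.

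Among the channels, *egl-19* (WBGene00001187) encodes the L-type calcium channel that carries the excitation of body wall and vulval muscle. It lies on chromosome IV from 7405582 to 7418740, has 6465 exon bases, the most of the 10, and shares 60 of them with genes on the other strand. Its normalized counts were 719, 613 and 714 in the low libraries, against 775, 1193 and 963 in the high ones. Every high library lay above every low one, with high replicate 1 nearest to them. The means were 682 ± 59.8 (SD, n = 3) and 977 ± 209.5 (SD, n = 3), and the log2 fold change was 0.52 (95% interval 0.09 to 0.95, adjusted p = 0.185 from edgeR), the largest of the 10. The fold was 1.43 with an interval of 1.06 to 1.93. With a correction for exon length, chosen after seeing the data, the log2 fold change of *egl-19* was 0.55. Its adjusted p from edgeR was then 0.053, and 0.0337 when the replicate number was a block as well, beside a highest value of 0.38 over the alternatives.

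The 3 potassium channel genes each encode a voltage-gated channel whose activating mutations block egg laying by keeping the muscles from being excited. *unc-103* (WBGene00006830), the ERG-type channel gene on chromosome III from 4115385 to 4147278, had 315, 257 and 334 normalized counts in the low libraries, against 351, 444 and 375 in the high ones. Every high library lay above every low one, by a small margin between low replicate 3 and high replicate 1. The means were 302 ± 40 (SD, n = 3) and 389.9 ± 48.3 (SD, n = 3), and the log2 fold change was 0.37 (95% interval -0.076 to 0.81, adjusted p = 0.415 from edgeR). Of its 4786 exon bases, 359 (7.5%) lie opposite noncoding RNA genes, and the sources do not state whether the counting used the strand.

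*egl-2* (WBGene00001171), the EAG-type channel gene on chromosome V from 1289373 to 1299332, had 84.1, 76.4 and 97.7 normalized counts in the low libraries, against 84.5, 153 and 119.5 in the high ones. High replicate 1 lay among the low libraries and the other 2 high libraries lay above them. The means were 86.1 ± 10.8 (SD, n = 3) and 119 ± 34.1 (SD, n = 3), and the log2 fold change was 0.47 (95% interval -0.2 to 1.13, adjusted p = 0.528 from edgeR). A fold of up to 2.2 is inside this interval, so a doubling of *egl-2* could not be told from no difference in these libraries.

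*egl-36* (WBGene00001202), the Shaw-type channel gene on chromosome X from 10734326 to 10744355, was counted between 48 and 112 times per library. Its normalized counts were 105, 57.6 and 55.2 in the low libraries, against 90, 73.8 and 63.6 in the high ones. Low replicate 1 was the highest of the 6, and the groups overlapped. The means were 72.5 ± 27.9 (SD, n = 3) and 75.8 ± 13.3 (SD, n = 3), and the log2 fold change was 0.062 (95% interval -0.72 to 0.84, adjusted p = 0.963 from edgeR). Its sign changed when low replicate 2, low replicate 3 or high replicate 1 was left out, and it was 0.40 without low replicate 1.

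In all, the groups did not overlap in 3 of the 10 genes, *eat-16*, *egl-19* and *unc-103*, beside 21.7% of all genes tested, and in these 3 the high libraries were the higher ones. Of all genes tested, the high libraries lay above every low library in 11.8% and below every low library in 9.96%. Of the 10, 5 had the high library above the low one within every replicate number (*egl-30*, *eat-16*, *egl-19*, *egl-2* and *unc-103*), and 0 had it below in every number. Of all genes tested, 21.1% had it above and 24.0% below in every number. For *egl-2* the difference within replicate 1 was 0.0061 on the log2 scale.

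The level of transcripts per exon length spanned a wide range among the 10 genes. On the RPKM scale, which divides reads by exon length and library size, averaged over the 6 libraries, *goa-1* stood first at 72.2 ± 6.66 (SD over 6 libraries) and *egl-30* second at 28.2 ± 4.05. *eat-16* (8.26) and *egl-8* (8.14) came next, with library ranges that overlapped. Of these, *egl-8* lay above *eat-16* in every low library and below it in every high library. Groups did not overlap in the log2 ratio of 26.2% of all pairs of genes tested with a count in every library. *egl-10* followed at 3.58 and *egl-19* at 1.90, whose ranges overlapped as well. Below them came *unc-103* at 1.07, *dgk-1* at 1.01, *egl-36* at 0.595 and *egl-2* at 0.457, and each of these overlapped with its neighbour in this order. The ranges did not overlap between *goa-1* and *egl-30*, between *egl-30* and *eat-16*, between *egl-8* and *egl-10*, and between *egl-19* and *unc-103*. In RPKM *goa-1* was above 87.1% of the genes tested and *egl-30* above 70.1%, whereas *egl-36* was above 18.04% and *egl-2* above 14.6%.

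**Figure D3:**
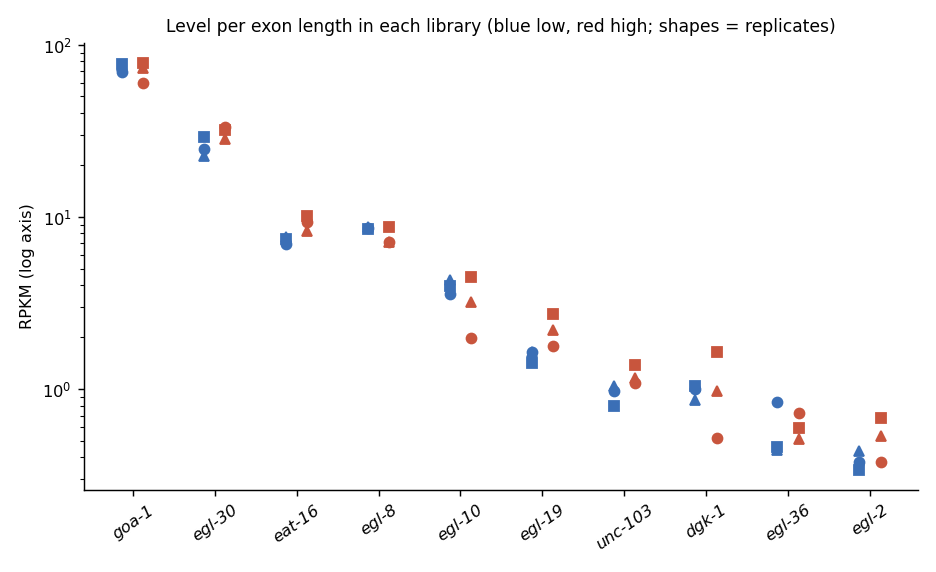
Level of each of the 10 genes in RPKM (reads scaled by exon length and library size, log axis), ordered by the mean over the 6 libraries. Blue and red points are the low and high exopher libraries, with circles, squares and triangles for replicates 1, 2 and 3. The G protein genes *goa-1* and *egl-30* lie above the other 8 genes, and the potassium channel genes and *dgk-1* lie at the lower end.

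The ratio of opposed genes within a library does not depend on how libraries are scaled, and 3 such ratios were computed. They are descriptions of whole-worm RNA without a test. The log2 ratio of *egl-30* to *goa-1*, the Gq gene over the Go gene, was -0.53, -0.45 and -0.79 in the low libraries, against 0.097, -0.34 and -0.41 in the high ones. The groups did not overlap, with a gap set by low replicate 2 and high replicate 3, and the mean difference was 0.37. Without high replicate 1 the difference was 0.22.

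For the RGS genes, the log2 ratio of *eat-16* to *egl-10* was 0.051, -0.0013 and -0.074 in the low libraries, against 1.33, 0.27 and 0.45 in the high ones. The low libraries lay close together near 0 and every high library lay above them. The mean difference was 0.69, or 0.37 without high replicate 1. Here the numerator is the gene that holds egg laying back, *eat-16*, whereas the numerator of the ratio above is *egl-30*, which promotes it. The log2 ratio of *egl-8* to *dgk-1* was 3.69, 3.61 and 3.91 in the low libraries, against 4.36, 2.99 and 3.45 in the high ones, and these groups overlapped, with a mean difference of -0.14. It was -0.52 without high replicate 1 and 0.17 without high replicate 2. Over all pairs of genes tested with a count in every library, 26.2% of the ratios had groups that did not overlap, beside 2 of these 3. The members of each ratio differ in exon length (3928 and 2020, 2409 and 4507, 5631 and 3754 bases), and the part of the length trend of high replicate 1 in these ratios was not tested.

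**Figure D4:**
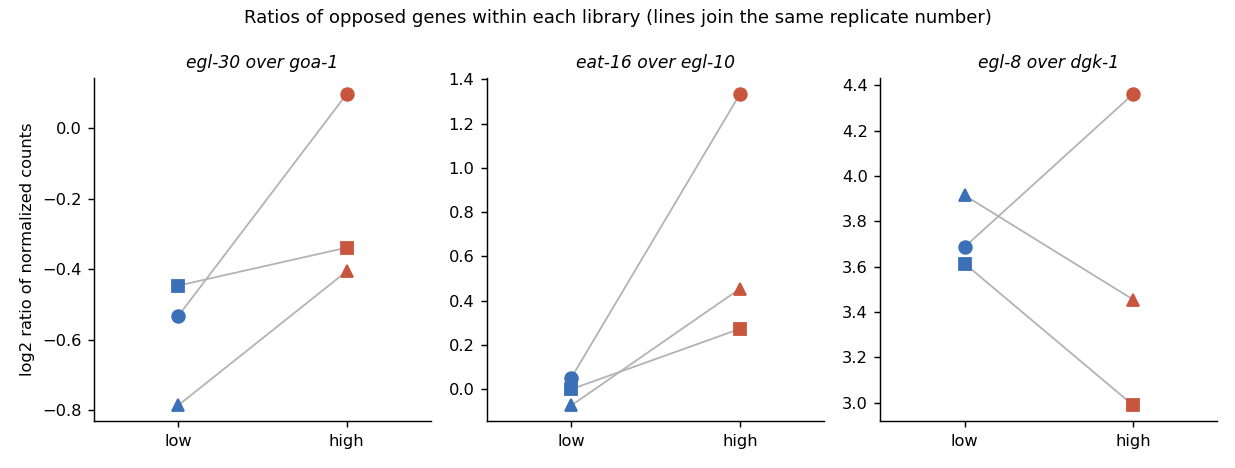
Log2 ratio of normalized counts of 3 pairs of opposed genes in each library, low (blue) and high (red), on axes that do not start at 0. Grey lines join libraries of the same replicate number. The ratios of *egl-30* to *goa-1* and of *eat-16* to *egl-10* are higher in all 3 high libraries, with replicate 1 (circle) farthest up, and that of *egl-8* to *dgk-1* goes up in 1 line and down in 2.

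The similarity of the 10 genes across the 6 libraries differed from pair to pair. Pearson's r of the log2 normalized counts was 0.96 between *goa-1* and *egl-10*, 0.96 between *egl-19* and *egl-2* and 0.95 between *egl-19* and *unc-103*. For *dgk-1* r was 0.86 with *goa-1* and 0.85 with *egl-10*. For *egl-30* the highest r with any of the other 9 genes was 0.76, with *eat-16*, and for *egl-36* it was 0.23, with *egl-30*. The lowest r was -0.63, between *goa-1* and *egl-36*. These values all rest on the same 6 libraries, so differences between the groups and between single libraries enter every r. In *goa-1*, *egl-10*, *dgk-1*, *egl-19*, *egl-2* and *unc-103*, high replicate 1 was the lowest and high replicate 2 the highest of the high group. This is the order described above for long genes, and its part in these r values was not tested. For *egl-19*, which had the smallest unadjusted p of the 10, the genes outside the 10 with the highest r were F21C10.7 (0.984), F58G1.7 (0.982) and *tmem-24* (0.979), and none of these passed the thresholds (adjusted p = 0.221, 0.553 and 0.254 from edgeR).

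Other genes of excitable cells and of the egg-laying system were compared through 4 lists. Of the 108 genes listed, 107 were matched by symbol (*nca-1* was not) and tested. Of these, 4 rose past the thresholds and 0 fell, beside 2.95% and 2.78% of all genes tested. Under a block on the replicate number 6 of the 107 rose, beside 682 of the 15883 genes tested, against 469 without the block. Among the 27 other genes of G protein signalling 0 were called, and their median log2 fold change was 0.015. At an unadjusted p below 0.05 from edgeR the means of 5 were higher and of 2 lower, beside 8.98% and 8.07% of all genes tested. The conventional protein kinase C gene *pkc-2* had the smallest p in this list, with a log2 fold change of -0.59 (95% interval -0.88 to -0.29, adjusted p = 0.0354 from edgeR), which is inside the fold threshold. The adjusted p was below 0.05 in 7 of 15 alternatives and between 0.0505 and 0.126 with any 1 library left out. The normalized counts of *pkc-2* were 1641, 1496 and 1511 in the low libraries, against 1017, 1160 and 919 in the high ones, without overlap.

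Of 25 other channel genes, *slo-1* and *nlf-1* rose. *slo-1* encodes the BK-type calcium-activated potassium channel, and had 178, 216 and 201 normalized counts in the low libraries, against 463, 472 and 534 in the high ones. The high libraries were above the low ones by a log2 fold change of 1.30 (95% interval 0.90 to 1.71, adjusted p = 0.0115 from edgeR). *nlf-1*, whose product is needed for the placement of the NCA sodium leak channel, had 169, 155 and 123 against 320, 339 and 253 normalized counts, a log2 fold change of 1.03 (95% interval 0.51 to 1.54, adjusted p = 0.0354 from edgeR). Their list had a median log2 fold change of 0.23, beside 0.20 for the 10 genes. At an unadjusted p below 0.05 from edgeR it held 6 genes with a higher and 1 with a lower mean, beside 8.98% and 8.07% of all genes tested. The call of *nlf-1* was lost with any 1 library left out (adjusted p between 0.0625 and 0.117 from edgeR). Without high replicate 1 or without high replicate 3, 0 channel genes were called, and *slo-1* then had an adjusted p of 0.0504 and 0.0529 from edgeR.

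Of 38 genes for transmitters, peptides and their receptors in the egg-laying circuit, *lev-8* rose. This nicotinic acetylcholine receptor subunit gene had 64.5, 73.2 and 65.5 normalized counts in the low libraries, against 141, 151 and 150.4 in the high ones, which gave a log2 fold change of 1.12 (95% interval 0.61 to 1.63, adjusted p = 0.026 from edgeR). The median of this list was -0.09. At an unadjusted p below 0.05 from edgeR the means of 4 genes were higher and of 5 lower, beside 8.98% and 8.07% of all genes tested. Of 17 genes for the development of the HSN neurons and the sex muscles, *egl-46* rose. This zinc finger transcription factor gene had 839, 1171 and 594 normalized counts in the low libraries, against 2414, 1981 and 1822 in the high ones, which gave a log2 fold change of 1.25 (95% interval 0.69 to 1.82, adjusted p = 0.0245 from edgeR). The median of this list was 0.43, the highest of the 4. At an unadjusted p below 0.05 the means of 7 genes were higher and of 0 lower, beside the same 8.98% and 8.07%. With any 1 high library or with low replicate 1 or 3 left out, 0 of the transmitter genes were called. For the development genes the count was 0 with any 1 high library or low replicate 1 left out, and 2 under a block on the replicate number, as it was for the transmitter genes.

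**Figure D5:**
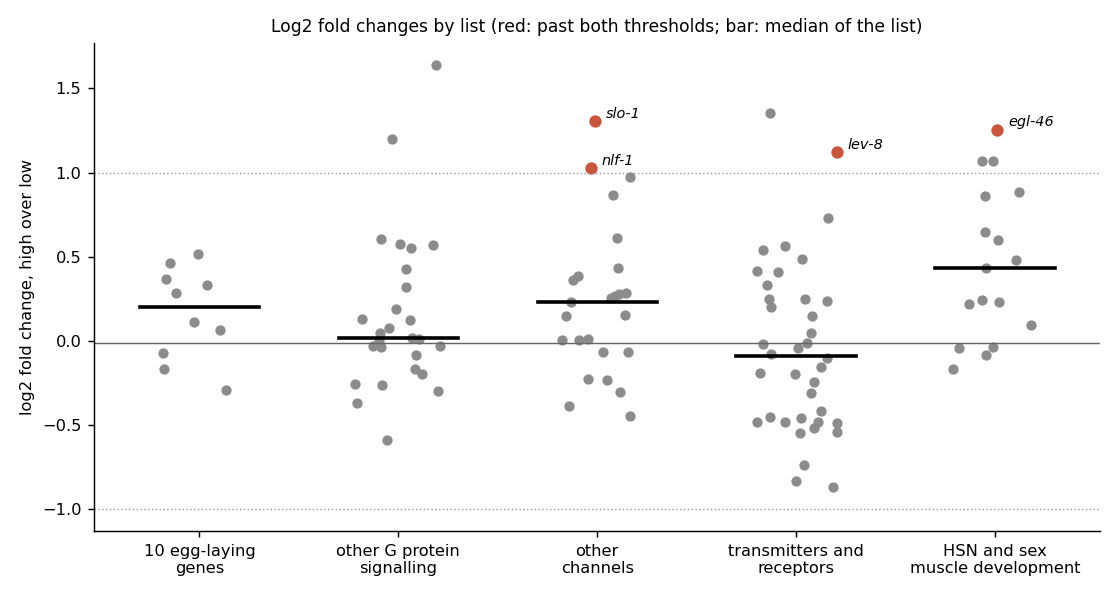
Log2 fold change (high over low, vertical axis) of the 10 egg-laying genes and of the tested genes of 4 related lists, 1 point per gene with random sideways spread. Red points passed both thresholds, black bars are list medians, dotted lines mark -1 and 1, and the grey line is the median of all genes tested. No red point lies in the first column, whose genes run from -0.29 to 0.52, and *slo-1*, *nlf-1*, *lev-8* and *egl-46* are red in the others.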

How the data were processed

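The authors trimmed paired-end reads with Trimmomatic 0.36, aligned them with STAR 2.5.2b to the Ensembl genome of *C. elegans* (release not given in the sources used here), and counted uniquely aligned reads in exons with featureCounts (Subread 1.5.2). The deposited raw counts per gene were used. A deposited signal table, counts divided by DESeq2 size factors for 15931 genes, served only to check them. Counts were filtered with filterByExpr, scaled by TMM and compared across all 15883 genes with edgeR 4.0.16's robust quasi-likelihood test in R 4.3.3, with Benjamini-Hochberg adjustment. DESeq2 1.42.0, the tool the authors name, and limma 3.58.1 were alternatives, with other scaling, no filter, a replicate block and each library left out. The method was tested on simulated data. Intervals use the quasi-likelihood F statistic and its degrees of freedom. RPKM uses merged exons of the Ensembl release 115 annotation of WBcel235, which gave the positions. Groups came from the sample titles.

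The labels number the replicates without stating that numbers pair libraries. Across genes, the deviations from the group mean of libraries with the same number had r = 0.27, 0.24 and 0.33, so the replicate block was treated as a pairing found in the data. The 10 genes and all lists were chosen with earlier results of these data known. The genes named from the lists are those called, or the one with the smallest p where none was, with the 2 most abundant of each marker list and the 3 genes most like *egl-19*. No sequence was used.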

Additional observations from a re-analysis of the deposited data

How the results depend on the processing

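Over 15 alternatives, 6 of which leave out 1 library, 0 of the 10 genes were called. *egl-36* and *egl-2* had the fewest counts of the 10 genes, and *dgk-1* had the largest SE. Directions changed for 3 genes. The log2 fold change of *dgk-1* was -0.052 with limma-voom and -0.019 with the replicate block, and it ran from -0.38 to 0.43 when single libraries were left out. That of *egl-36* ran from -0.10 to 0.40 and that of *goa-1* from -0.16 to 0.024 in the same way. The cause was not tested. The replicate block (paired analysis) changed the call of none of the 10 genes, and gave 682 higher and 584 lower genes over the whole table beside 469 and 442. When single libraries were left out, the genes called over the whole table ran from 5 to 465 higher and from 0 to 663 lower, and those of the 4 related lists from 0 to 4 higher. With genes of low counts kept, 670 were lower. Total counts without a scaling factor moved the median log2 fold change of all genes by 0.052. The difference in the log2 ratio of *egl-30* to *goa-1* ran from 0.22 to 0.47, that of *eat-16* to *egl-10* from 0.37 to 0.90 and that of *egl-8* to *dgk-1* from -0.52 to 0.17.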

Other observations

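Among the muscle markers, the myosin heavy chain genes went in opposite directions, which was singled out after the values were seen. *myo-3*, whose promoter drives the transgenes of the strain, had 2998, 2719 and 3001 normalized counts in the low libraries, against 4103, 5759 and 4266 in the high ones, which gave a log2 fold change of 0.70 (95% interval 0.39 to 1.00, adjusted p = 0.0234 from edgeR). *unc-54*, the major myosin heavy chain gene of body wall muscle, had 50835, 40618 and 48340 against 26829, 38844 and 30914, a log2 fold change of -0.53 (95% interval -0.88 to -0.19, adjusted p = 0.0866 from edgeR). Neither was past the fold threshold.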
